A study of Mus musculus with 20 samples.

Results

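The clotting and complement factors of plasma are made largely by hepatocytes, and the mRNAs of 40 of them were followed here in livers with and without HuR knockdown. The members were the genes of a list of 44 symbols, 26 of coagulation or shared with it and 18 of complement, whose symbol, ignoring case, stands in both of the deposited tables. The 4 symbols C1R, C1S, C5 and C4BPA stand in the human table only. The 40 members, out of 16717 symbols held by both tables, comprised 23 coagulation genes, 14 complement genes and 3 inhibitors that act on both cascades (SERPING1, VTN and A2M).

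HuR, encoded by ELAVL1, is an RNA-binding protein that binds AU-rich and U-rich stretches, often in 3′ UTRs, and is known for stabilising many of the mRNAs it binds. Coagulation is a chain of serine proteases in which each activates the next, ending in thrombin, which turns fibrinogen into fibrin, while plasmin dissolves the clot and inhibitors hold each step in check. Complement is a second protease chain, started by antibody, by sugars on microbes or spontaneously, which cleaves C3 and ends in a pore made of C5b to C9.

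RNA of 20 livers was sequenced as total RNA and deposited as TPM, a length-scaled abundance that adds up to 1000000 in each library. The WT mice were male C57BL/6, 6 with an adenovirus carrying an shRNA against mouse HuR (HuR KD) and 6 with the control virus (LacZ). The humanized mice were TK-NOG mice, immunodeficient NOG mice with a herpes thymidine kinase transgene under the mouse albumin promoter. Ganciclovir, given at 25 mg/kg when the mice were 8 to 9 weeks old, killed the host hepatocytes that carry the transgene, 1000000 human hepatocytes were transplanted a week later, and mice with at least 0.5 mg/ml human albumin in serum 8 to 12 weeks after that were used. Of these, 4 received an shRNA against human HuR and 4 the control virus. Each mouse of every group got 2000000000 pfu intravenously, and livers were collected at day 7, the mice having fasted for 4 h. The table of humanized mouse livers lists human genes only, so the mouse cells that remain in these livers are not seen in it. Host, shRNA and species differ together between both sets and cannot be told apart. In bulk liver RNA, fewer cells of a type and less RNA per cell cannot be told apart either.

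The human table fits its label as hepatocytes: all 10 hepatocyte markers were at 1 TPM or more, and their sum ran from 45058 to 99057 TPM per liver. Markers of human macrophages, endothelium and leukocytes summed to at most 4.83, 1.05 and 0.898 TPM per liver, with CSF1R, C1QA, C1QB, C1QC, PECAM1, CDH5 and PTPRC below 0.1 TPM in both groups. The markers listed for bile duct and for stellate cells summed to more, and to less with HuR KD than with LacZ in the median or range. The sum of 4 bile duct markers ran from 4.71 to 26.8 TPM (median 8.07) with HuR KD and from 10.1 to 34.9 TPM (median 24.3) with LacZ. EPCAM was called lower (log2 fold change −1.17, limma adjusted p = 0.424), and KRT19, a defining marker, was at or below 0.585 TPM in every liver. The sum of 7 stellate and fibroblast markers ran from 2.79 to 4.88 TPM with HuR KD and from 5.26 to 7.37 TPM with LacZ. RELN was called lower (−1.19, limma adjusted p = 0.134), while DCN, COL1A2 and COL3A1 were below 0.1 TPM in both groups. Which human cells these transcripts came from, and their part in the results on human genes, was not tested. Reads counted on genes, recovered from the steps of the TPM values, ran from 2668813 to 20297887 per humanized mouse liver and from 1423535 (LacZ replicate 2) to 44662029 per WT mouse liver. HuR KD replicate 4 and LacZ replicate 2 of the humanized mouse livers stood apart: they had the most reads (20297887 and 19886066), mitochondrial ribosomal RNA at 49.1% of TPM, and a correlation of 0.965 with each other across genes, where no other pair passed 0.931. Called human members, and other called human genes given with a log2 fold change, are therefore also given without both. Without both livers the log2 fold change of EPCAM was −1.64 and that of RELN −1.20. Among WT mouse livers, HuR KD replicate 6, with 12958115 reads, was the highest liver of its group for several members, and the calls of F10, Serpind1, Cfp and C8g were lost without it.

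HuR mRNA was lower in every HuR KD liver than in any LacZ liver of its set. Human ELAVL1 was 4.05, 2.37, 3.54 and 3.90 TPM in the HuR KD livers and 5.76, 4.77, 6.17 and 5.99 TPM in the LacZ livers (p = 0.0286 by exact permutation, two-sided, which is the lowest that 4 against 4 livers allow). Mouse Elavl1 ran from 3.72 to 5.62 TPM (median 4.97, n = 6) with HuR KD and from 8.58 to 10.7 TPM (median 9.49, n = 6) with LacZ (exact permutation test, p = 0.00216, the smallest possible). The remaining level was 61.0% of control in human and 51.7% in mouse, so the knockdown was partial in both.

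Of the 35 members with a mean of at least 1 TPM in humanized mouse livers, 3 rose and 3 fell with HuR KD at an unadjusted p under 0.05 in limma (the threshold of the study), 17.1% against 11.5% of the 12738 human genes tested (3.60% higher and 7.87% lower). F7, F13B and SERPINF2 rose, and KLKB1, PROC and C6 fell. In WT mouse livers 5 of 39 rose and 9 fell, 35.9% against 16.0% of the 15090 mouse genes tested (9.09% higher and 6.94% lower). F10, Serpinf2, Serpind1, Serpina10 and C8b rose, and F5, F11, Klkb1, Cpb2, Hrg, C2, Cfp, C6 and C8g fell. Members varied less between livers than all genes tested. Their median residual SD (log2) was 0.26 against 0.32 in humanized and 0.16 against 0.20 in WT mouse livers. The part of this smaller spread in the shares called was not tested. Scaling moved the human split: the members called were 4 higher and 1 lower with median-of-ratios factors and 4 higher and 2 lower with protein-coding scaling, and PROC was not called under either. After Benjamini-Hochberg adjustment over all genes 0 members passed in either set, where 0.212% of human and 0.888% of mouse genes did, so every member change named here rests on the unadjusted threshold. The changes were small, between −0.53 and 0.46 (log2 fold change) for the called human members and between −0.41 and 0.34 for the called mouse members. SERPINF2, KLKB1 and C6 were called in the same direction in both sets, 3 of the 34 members tested in both. The share of all gene pairs called in both sets was not counted. The sign of the fold change was the same for 20 of these 34 members, against 49.8% of gene pairs. Groups of livers did not overlap for 2 of 35 human members (F7 higher and C8A lower), against 7.16% of human genes tested, and for 1 of 39 mouse members (Cpb2 lower), against 2.49% of mouse genes tested, 1.25% higher and 1.23% lower.

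Which members were called in humanized mouse livers depended on single livers. Leaving out each liver in turn gave 1 to 7 calls in place of 6, with 1 call without HuR KD replicate 2 or LacZ replicate 1, 2 without HuR KD replicate 1, and 3 without HuR KD replicate 3 or LacZ replicate 4. Without both livers that stood apart, the same 6 members were called together with SERPIND1 and A2M, which were lower. In WT mouse livers the count ran from 9 (without LacZ replicate 1) to 14 calls.

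**Figure D1:**
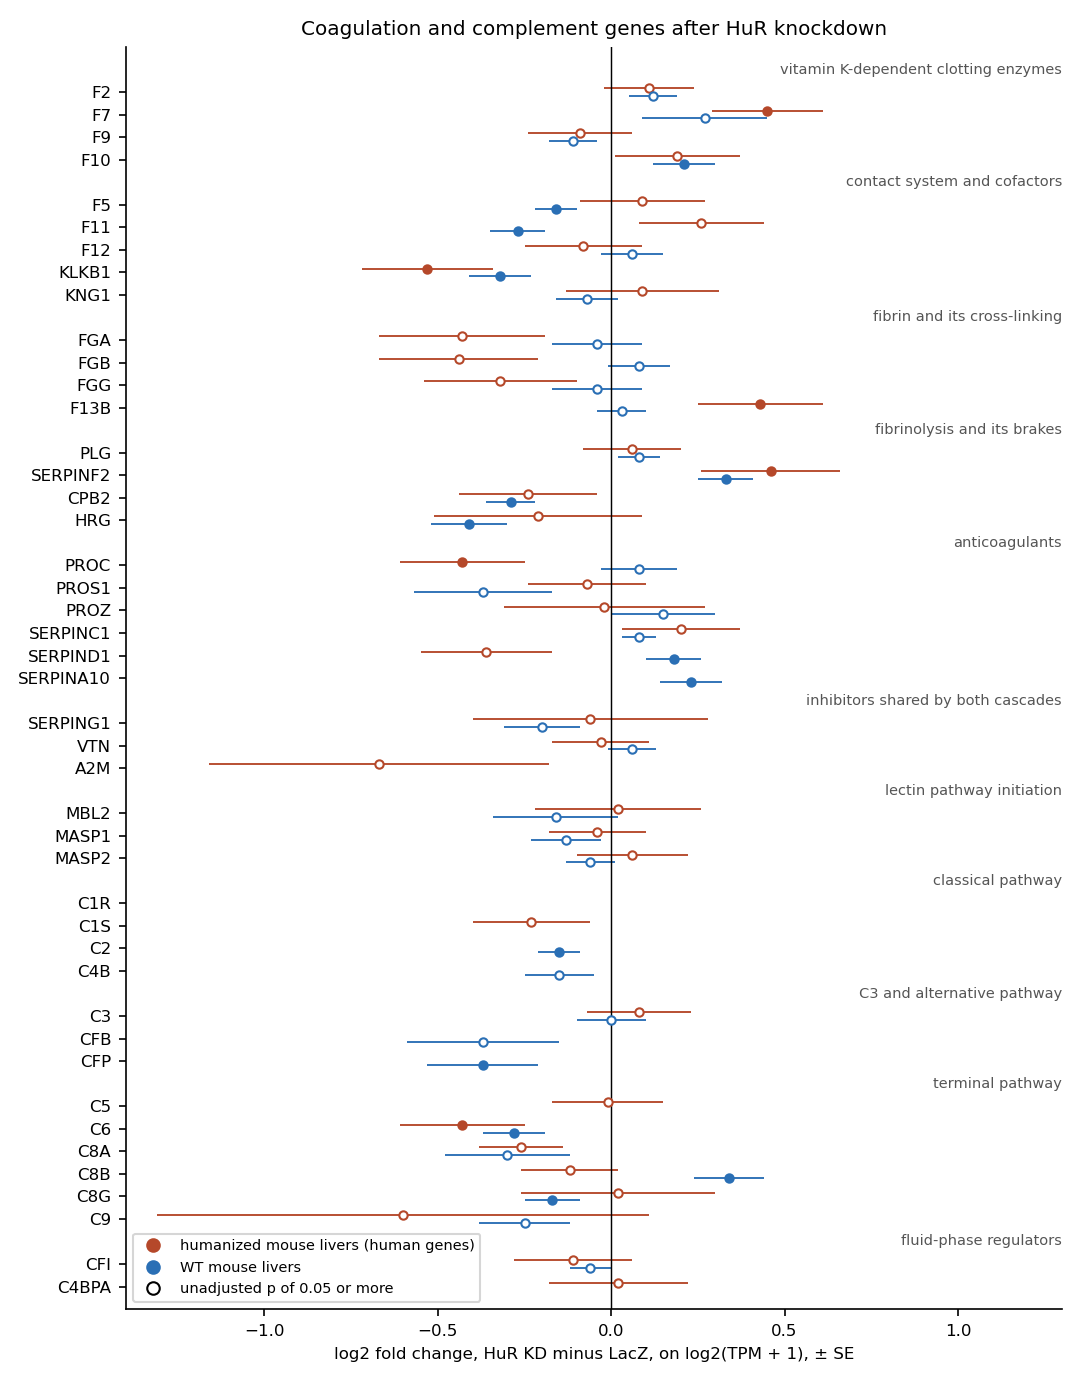
Log2 fold change of each member (HuR KD minus LacZ, on log2(TPM + 1), horizontal axis) with its standard error, by role, for human genes in humanized mouse livers (red, 4 against 4 livers) and mouse genes in WT mouse livers (blue, 6 against 6). Filled points have an unadjusted p under 0.05 in limma, and SERPINF2 on the higher side and KLKB1 and C6 on the lower side are filled in both colours.

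The vitamin K-dependent clotting enzymes are F2 (prothrombin), F7, which starts clotting with tissue factor, F9 and F10. F7 rose in humanized mouse livers, from 23.9, 34.7, 29.1 and 34.7 TPM in LacZ livers to 39.7, 37.5, 47.4 and 43.1 TPM in HuR KD livers. All HuR KD livers lay above all LacZ livers, as in 2.13% of human genes tested (log2 fold change 0.45 ± 0.16 SE, limma adjusted p = 0.306). The call was lost without LacZ replicate 1, and the value was 0.50 without the pair of livers that stood apart. Mouse F7 gave no call: HuR KD replicate 6 stood at 205 TPM while the other HuR KD livers ran from 84.6 to 98.6 TPM, and the log2 fold change was 0.27 with it and 0.08 without it. Mouse F10, which lies next to F7 on chromosome 8, was 258 to 374 TPM (median 282) with HuR KD and 237 to 302 TPM (median 244) with LacZ. Its log2 fold change of 0.21 (± 0.09 SE, limma adjusted p = 0.294) was 0.14 and no longer called without HuR KD replicate 6, and the call was lost in 8 of 12 fits with a liver left out. F2, the most abundant enzyme of the group, was 439, 422, 502 and 420 TPM with HuR KD and 373, 399, 446 and 438 TPM with LacZ in humanized mouse livers. Mouse F2 ran from 690 to 926 TPM (median 736) with HuR KD and from 665 to 754 TPM (median 703) with LacZ, so the groups of F2 overlapped in both sets.

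In the contact system, which starts clotting on charged surfaces, KLKB1 (plasma prekallikrein, which cleaves F12 and frees bradykinin from kininogen) was lower in both sets. Human KLKB1 was 51.7, 41.9, 55.0 and 58.5 TPM with HuR KD and 89.3, 52.6, 77.0 and 85.2 TPM with LacZ. The lowest LacZ liver, replicate 2, was the only one that reached into the HuR KD range. The log2 fold change was −0.53 (± 0.19 SE, limma adjusted p = 0.328), or −0.75 without the pair of livers that stood apart. The call was lost in 3 of 8 fits with a liver left out (HuR KD replicate 2, LacZ replicate 1 or LacZ replicate 4), where the value was as small as −0.43. Mouse Klkb1 ran from 60.8 to 83.5 TPM (median 77.9) with HuR KD and from 80.5 to 111 TPM (median 89.6) with LacZ, a log2 fold change of −0.32 (± 0.09 SE, limma adjusted p = 0.119) that stayed past the unadjusted threshold whichever liver was left out. In the mouse annotation, 43.2% of the exonic length of Klkb1 is shared on the same strand with Gm45753, so reads there may have been assigned to either gene or to none.

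F11, the target of F12, lies beside Klkb1 in the mouse genome and fell in mouse livers. It ran from 26.1 to 35.1 TPM (median 30.1) with HuR KD and from 33.5 to 39.5 TPM (median 37.0) with LacZ (log2 fold change −0.27 ± 0.08 SE, limma adjusted p = 0.111). Human F11 was 85.4, 65.7, 77.0 and 61.3 TPM with HuR KD against 64.2, 45.7, 59.1 and 74.4 TPM with LacZ, and the groups overlapped. The human fold change exceeded the mouse one by 0.52 (standard error 0.17), with an adjusted p of 0.0864 in the joint limma fit. F5, the cofactor of F10, was 310 to 378 TPM (median 346) with HuR KD and 351 to 402 TPM (median 393) with LacZ in WT mouse livers (log2 fold change −0.16 ± 0.06 SE, limma adjusted p = 0.234). The 2 groups overlapped between 351 and 378 TPM. The mouse F5 call was lost in 2 of 12 fits with a liver left out and with the replicate block. Human F5 was 52.2 ± 7.92 TPM with HuR KD against 49.4 ± 10.3 TPM with LacZ (SD, n = 4). KNG1 (kininogen), the most abundant gene of this group, was 603 to 1025 TPM with HuR KD and 544 to 952 TPM with LacZ in humanized mouse livers, and F12 was not called in either set.

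HuR binds U-rich and AU-rich RNA, so the 3′ UTRs of the mouse members were searched for ATTTA, for its longer form TATTTAT and for runs of TTTTTTT, on the transcript strand. The 3′ UTR of the principal transcript in GENCODE M21 was taken for each gene, the longest where several were principal. ATTTA stood in 15 of 39 tested members (38.5%) against 67.0% of 11268 protein-coding genes tested, and TATTTAT in 3 (7.69% against 27.7%). Runs of TTTTTTT stood in 9 (23.1% against 41.5%). The members' 3′ UTRs were also shorter, with a median of 325 bases against 993, and a shorter UTR has fewer places for a match. Of the called mouse members, Klkb1 has a 3′ UTR of 3213 bases with 7 ATTTA and 25 overlapping TTTTTTT matches, and F5 has 753 bases with 1 and 5. Serpind1 and Serpina10 have 1 ATTTA each. The other 10 of the 14 called members, among them Hrg (72 bases), Cpb2 (140), C6 (403) and Serpinf2 (671), have 0 of any of the motifs. These are matches of letters and were not tested as binding sites. The windows below, on GRCm38 and 29 bases long, show the T runs of the called Klkb1 and F5 and the TATTTAT of F13b and Serpinc1, which were not called in mouse, with the motif in capitals. They lie at chr8:45268438-45268466 (minus strand), chr1:164219995-164220023 (plus), chr1:139523525-139523553 (plus) and chr1:161003928-161003956 (plus), each within the annotated 3′ UTR.
Klkb1: ttgttttgTTTTTTTTTTTTTctagaaaa
F5: tagttgaggTTTTTTTTTTatcatagaga
F13b: aatactttcctTATTTATcaatcaaagca
Serpinc1: ctatatataggTATTTATagttaaggtca

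Fibrin is made from the FGA, FGB and FGG chains of fibrinogen and is cross-linked by factor XIII, whose carrier subunit is F13B. F13B rose in humanized mouse livers, with 166, 136, 142 and 113 TPM in HuR KD against 109, 78.0, 104 and 122 TPM in LacZ livers. The HuR KD replicate 4 lay within the LacZ range (log2 fold change 0.43 ± 0.18 SE, limma adjusted p = 0.395). The value was 0.40 and called without the pair of livers that stood apart, and the call was lost in 6 of 8 fits with a liver left out. In WT mouse livers F13b was 228 to 261 TPM (median 248) with HuR KD and 211 to 269 TPM (median 244) with LacZ.

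FGB and FGA were the most abundant coagulation mRNAs in human, and all 3 chains were in mouse. FGB was 1576, 1145, 1215 and 1817 TPM with HuR KD and 2097, 2040, 1315 and 2412 TPM with LacZ. FGA was 1323, 958, 931 and 1553 TPM against 1536, 1960, 1084 and 1854 TPM, and FGG 955, 653, 690 and 1032 TPM against 1049, 1117, 724 and 1275 TPM. The chains followed each other from liver to liver, in the order FGB over FGA over FGG in 8 of 8 livers, and LacZ replicate 3 lay low for all 3. Their mean HuR KD levels of 73.2, 74.1 and 80.0% of control for FGB, FGA and FGG gave no call in the fit of all livers, while FGB and FGA passed the unadjusted threshold without HuR KD replicate 4 and all 3 did without LacZ replicate 3. In WT mouse livers Fga ran from 2111 to 4035 TPM (median 3326) with HuR KD and from 3044 to 3415 TPM (median 3146) with LacZ. Fgb ran from 2075 to 2843 TPM (median 2472) against 2136 to 2757 TPM (median 2320), and Fgg from 1927 to 3589 TPM (median 3089) against 2795 to 3026 TPM (median 2877). The order there was Fga over Fgg over Fgb in 11 of 12 livers, the exception being HuR KD replicate 6, with 2111 TPM of Fga, 1927 TPM of Fgg and 2780 TPM of Fgb. The human fold change of FGB lay 0.52 below the mouse one (± 0.22 SE, limma adjusted p = 0.185).

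**Figure D2:**
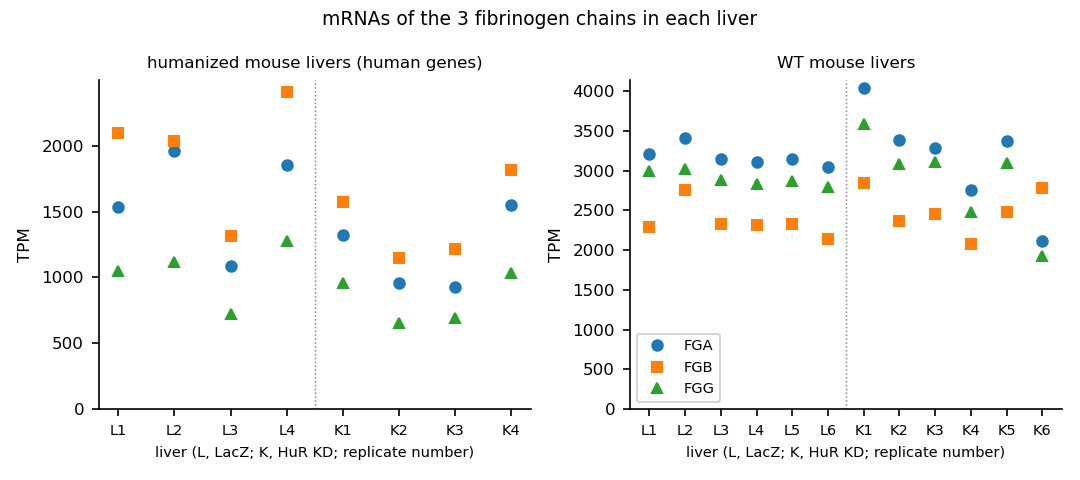
TPM of FGA, FGB and FGG in each liver, LacZ livers left and HuR KD livers right of the dotted line, for humanized mouse livers (left panel) and WT mouse livers (right panel). In the left panel the 3 chains keep 1 order in all 8 livers, and in the right panel HuR KD replicate 6 is the liver in which Fgb lies above Fga.

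The fibrinogen genes are neighbours on mouse chromosome 3. The 250 bases before the start of Fgb and of Fgg, from RefSeq on GRCm38.p6, are shown because the chains run together. They were searched on both strands for CTGGGAA, the core of the interleukin-6 response element known from fibrinogen genes, and for the C/EBP-like TTGCNNAAT. CTGGGAA stood in 10.4% of 27025 promoters of this length and in 4 of the 29 members that matched a promoter entry (F9, FGB, FGG and MASP2). TTGCNNAAT stood in 2.45% of promoters and in 4 of 29 (C3, C9, F9 and FGA). The matches are in capitals, at chr3:83049864-83050113 (minus strand) for Fgb and chr3:83007474-83007723 (plus strand) for Fgg.
Fgb: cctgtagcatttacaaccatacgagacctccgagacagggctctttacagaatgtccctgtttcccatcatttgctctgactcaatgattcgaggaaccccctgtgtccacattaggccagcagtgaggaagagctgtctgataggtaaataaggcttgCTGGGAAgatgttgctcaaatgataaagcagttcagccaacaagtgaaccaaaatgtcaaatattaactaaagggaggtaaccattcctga
Fgg: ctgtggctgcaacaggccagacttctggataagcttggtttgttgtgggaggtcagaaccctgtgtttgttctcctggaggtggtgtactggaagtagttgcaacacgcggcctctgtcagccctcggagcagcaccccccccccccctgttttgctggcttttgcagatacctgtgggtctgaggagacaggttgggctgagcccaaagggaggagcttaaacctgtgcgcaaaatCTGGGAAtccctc

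Among the genes of fibrinolysis, SERPINF2 (alpha-2-antiplasmin, the main inhibitor of plasmin) rose in both sets. Human SERPINF2 was 30.3, 29.5, 36.4 and 20.7 TPM with HuR KD and 20.2, 17.8, 18.8 and 26.9 TPM with LacZ, so the groups overlapped through HuR KD replicate 4 and LacZ replicate 4 (log2 fold change 0.46 ± 0.20 SE, limma adjusted p = 0.423). Mouse Serpinf2 ran from 846 to 1113 TPM (median 953) with HuR KD and from 668 to 856 TPM (median 787) with LacZ, a log2 fold change of 0.33 (± 0.08 SE, limma adjusted p = 0.0832). The mouse groups touched only between 846 and 856 TPM, and the mouse call held whichever liver was left out, while the human call was lost in 6 of 8 such fits. Without the pair of livers that stood apart the human value was 0.54 and called.

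Cpb2 (TAFI, which trims fibrin so that plasmin binds it less) fell in WT mouse livers and was the 1 member there whose groups did not overlap, as in 1.23% of mouse genes on the lower side. It ran from 258 to 318 TPM (median 289) with HuR KD and from 318 to 384 TPM (median 351) with LacZ, the groups meeting at 318 TPM after rounding (log2 fold change −0.29 ± 0.07 SE, limma adjusted p = 0.0615). Human CPB2 was 353, 352, 516 and 582 TPM with HuR KD and 487, 636, 454 and 516 TPM with LacZ, with overlap. Hrg, histidine-rich glycoprotein, which binds plasminogen and heparin, had the largest fall among mouse members, from 1203 to 1545 TPM (median 1319) with LacZ to 801 to 1293 TPM (median 981) with HuR KD (log2 fold change −0.41 ± 0.11 SE, limma adjusted p = 0.0977). The highest HuR KD liver was replicate 6, and without it the log2 fold change was −0.48 and passed the adjusted threshold (limma adjusted p = 0.0266). Human HRG spread widely among LacZ livers, at 1502, 707, 1229 and 1895 TPM, and was 1434, 1074, 1088 and 813 TPM with HuR KD. PLG, plasminogen itself, was 304 to 395 TPM with HuR KD against 319 to 390 TPM with LacZ in humanized mouse livers and was not called in either set.

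Of the anticoagulants, PROC (protein C, which inactivates F5 and F8) fell in humanized mouse livers, with 69.6, 76.7, 90.2 and 107 TPM in HuR KD against 97.5, 112, 111 and 143 TPM in LacZ livers (log2 fold change −0.43 ± 0.18 SE, limma adjusted p = 0.391). The highest HuR KD liver, replicate 4, was within the LacZ range, and without the pair of livers that stood apart the value was −0.56. The call was lost in 4 of 8 fits with a liver left out. Mouse Proc ran from 314 to 471 TPM (median 346) against 302 to 424 TPM (median 325), and the human value lay 0.51 below the mouse one (± 0.20 SE, limma adjusted p = 0.140). Serpind1 (heparin cofactor II) rose in mouse, with 426 to 569 TPM (median 549) in HuR KD and 419 to 509 TPM (median 464) in LacZ livers (log2 fold change 0.18 ± 0.08 SE, limma adjusted p = 0.290). That call was lost in 9 of 12 fits with a liver left out, among them the one without HuR KD replicate 6 (0.16). Human SERPIND1 was 319, 256, 319 and 272 TPM with HuR KD against 413, 284, 331 and 501 TPM with LacZ, and lay 0.54 below the mouse value (± 0.19 SE, limma adjusted p = 0.0977). Serpina10, which inhibits F10 together with protein Z, rose in mouse. It went from 96.2 to 120 TPM (median 108) with LacZ to 114 to 151 TPM (median 120) with HuR KD (log2 fold change 0.23 ± 0.09 SE, limma adjusted p = 0.229). This call was lost in 4 of 12 fits with a liver left out. SERPINC1 (antithrombin), the most abundant anticoagulant, was 1189, 1068, 1386 and 1333 TPM with HuR KD against 973, 1323, 880 and 1173 TPM with LacZ in humanized mouse livers. Mouse Serpinc1 was 529 to 586 TPM (median 561) against 499 to 549 TPM (median 533), and neither species gave a call.

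**Figure D3:**
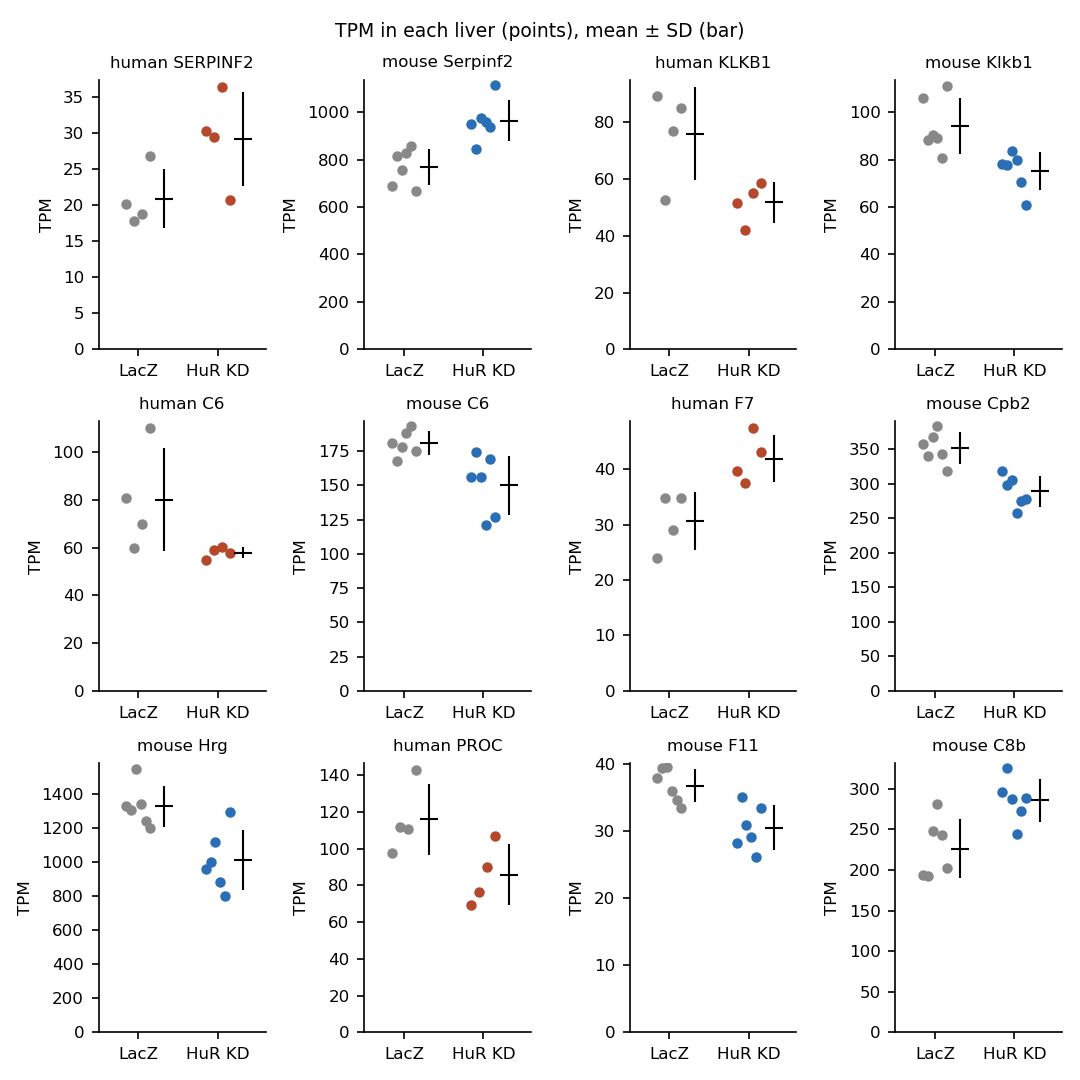
TPM in each liver (points) with the group mean ± SD (bar) for LacZ (grey) and HuR KD (red for human genes, n = 4 per group, blue for mouse genes, n = 6 per group). Mouse Cpb2 and human F7 show no overlap between groups, and human SERPINF2, KLKB1 and PROC each have a liver that reaches into the other group.

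The inhibitors shared by both cascades gave no call. VTN (vitronectin), the most abundant of them, was 1621, 1570, 1867 and 1456 TPM with HuR KD and 1613, 1482, 1621 and 1922 TPM with LacZ in humanized mouse livers, and mouse Vtn ran from 2058 to 2483 TPM (median 2179) against 1969 to 2294 TPM (median 2128). A2M, a broad protease trap, spread widely, at 433, 328, 286 and 131 TPM with HuR KD and 631, 173, 416 and 751 TPM with LacZ. The lowest A2M liver of each group was one of the pair that stood apart, and without them the log2 fold change went from −0.67 to −0.76 and was called.

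Among WT mouse livers, 13 of 14 complement members had a negative log2 fold change, as did 10 of 23 coagulation members and 6522 of the 15090 mouse genes tested. C3, counted among the 13, stood at −0.00 (± 0.10 SE). Of the complement members 1 was called higher and 4 lower, 35.7% against 16.0% of mouse genes tested (9.09% higher and 6.94% lower). Of the 23 coagulation members 4 were called higher and 5 lower, 39.1%. The median was −0.16 for complement members, 0.06 for coagulation members and 0.03 for all mouse genes tested. In humanized mouse livers the medians were −0.07 for 10 complement and −0.04 for 22 coagulation members, against −0.05 for all human genes tested. There 1 of 10 complement members was called (C6) and 22.7% of coagulation members, against 11.5% of human genes tested. The difference of the medians, coagulation minus complement, was thus 0.21 in WT and 0.03 in humanized mouse livers. Counting the shared inhibitors with either class left it at 0.21 in WT and at 0.01 or 0.02 in humanized mouse livers, and it rose to 0.14 without HuR KD replicate 4 and to 0.17 without LacZ replicate 4 of the humanized mouse livers.

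In the terminal pathway, which builds the membrane pore, C6 fell in both sets. Human C6 was 54.9, 58.9, 60.3 and 57.6 TPM with HuR KD, a narrow range, against 80.9, 59.8, 69.8 and 110 TPM with LacZ. The groups overlapped only through LacZ replicate 2 (log2 fold change −0.43 ± 0.18 SE, limma adjusted p = 0.422). The human call was lost under 5 of 11 other settings and in 6 of 8 fits with a liver left out, with values from −0.55, without the pair of livers that stood apart, to −0.26. Mouse C6 ran from 121 to 174 TPM (median 156) with HuR KD and from 168 to 193 TPM (median 180) with LacZ (log2 fold change −0.28 ± 0.09 SE, limma adjusted p = 0.160), and was called whichever liver was left out.

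C8 is assembled from the products of C8A, C8B and C8G. Mouse C8b rose, with 244 to 325 TPM (median 288) in HuR KD and 192 to 281 TPM (median 222) in LacZ livers (log2 fold change 0.34 ± 0.10 SE, limma adjusted p = 0.128). C8a, its neighbour on mouse chromosome 4, had 157 to 325 TPM (median 220) against 219 to 384 TPM (median 266), a log2 fold change of −0.30 that was not called. C8g fell slightly, with 300 to 347 TPM (median 328) against 300 to 407 TPM (median 380), a log2 fold change of −0.17 (± 0.08 SE, limma adjusted p = 0.292) whose call was lost in 8 of 12 fits with a liver left out, among them the one without HuR KD replicate 6 (−0.15). In humanized mouse livers C8A was 107, 88.2, 94.0 and 98.7 TPM with HuR KD, below every LacZ liver (117, 108, 109 and 130 TPM), as in 5.03% of human genes on the lower side, though its unadjusted p was not under 0.05. C8B was 110, 109, 122 and 151 TPM against 124, 137, 132 and 138 TPM, and the human fold change lay 0.46 below the mouse one (± 0.17 SE, limma adjusted p = 0.121). Human C9 was 5.01 and 7.96 TPM in the pair of livers that stood apart and at most 1.20 TPM in the others, against 160 to 305 TPM in WT mouse livers.

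C3, the hub of complement, was the most abundant complement mRNA of both species and gave no call. It was 633, 548, 667 and 714 TPM with HuR KD and 513, 706, 566 and 654 TPM with LacZ in humanized mouse livers, and 2499 to 3799 TPM (median 3038) against 2857 to 3381 TPM (median 3022) in WT mouse livers. Cfp (properdin), which steadies the alternative C3 convertase and is made chiefly by myeloid cells, fell in WT mouse livers from 38.6 to 56.6 TPM (median 49.3) with LacZ to 28.0 to 58.0 TPM (median 37.7) with HuR KD (log2 fold change −0.37 ± 0.16 SE, limma adjusted p = 0.272). The call was lost in 6 of 12 fits with a liver left out, among them those without LacZ replicate 2 (−0.33) and without HuR KD replicate 6 (−0.29). Most macrophage markers were lower too. The sum of 12 of these markers ran from 484 to 821 TPM (median 637) with HuR KD and from 685 to 941 TPM (median 841) with LacZ. Of 11 tested, 10 had a negative log2 fold change. Of the 11, 6 were called lower and 0 higher, against 6.94% of mouse genes tested called lower. The Kupffer cell gene Clec4f had the largest fall, from 49.5 ± 8.56 to 29.5 ± 8.15 TPM (SD, n = 6). Marco and Vsig4, at −0.12 each, and Cd163, at 0.24, were not called. The part of these markers in the result for Cfp was not tested. C1qb and C1qc, chains of C1q that macrophages make, were among those 6 and fell by 0.34 and 0.46 on the log2 scale.

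The classical pathway member C2 fell slightly in WT mouse livers, from 33.7 to 39.6 TPM (median 34.5) with LacZ to 29.8 to 34.5 TPM (median 32.1) with HuR KD (log2 fold change −0.15 ± 0.06 SE, limma adjusted p = 0.233). The call was lost in 3 of 12 fits with a liver left out and with the replicate block. Of the exonic length of C2, 42.8% is shared on the same strand with Gm20547, and the same holds for 79.5% of Cfb. C4b, the most abundant of the group, ran from 502 to 790 TPM (median 601) with HuR KD and from 595 to 714 TPM (median 687) with LacZ and was not called. The mouse proteases of the C1 complex, listed as C1ra and C1s1 and thus not members, were both lower, C1ra at 131 ± 6.69 against 153 ± 10.6 TPM and C1s1 at 288 ± 23.2 against 356 ± 39.9 TPM (SD, n = 6, adjusted p = 0.0954 and 0.0999 from limma). Human C1S was 189, 167, 225 and 224 TPM with HuR KD and 193, 218, 253 and 286 TPM with LacZ. Human C5 and C4BPA, also outside the membership rule, were 115 to 135 against 96.9 to 155 TPM and 206 to 313 against 194 to 329 TPM. The lectin pathway genes MBL2, MASP1 and MASP2 and the regulator CFI were not called in either set, with log2 fold changes from −0.11 to 0.06 in human and from −0.16 to −0.06 in mouse. Mouse Mbl2 was 320 to 558 TPM (median 459) with HuR KD and 350 to 677 TPM (median 548) with LacZ. The most abundant of them in LacZ livers were MBL2 in human, at 26.9, 25.0, 43.5 and 19.4 TPM (21.4, 29.6, 30.4 and 31.9 TPM with HuR KD), and Cfi in mouse, at 527 to 620 TPM (median 589) against 519 to 626 TPM (median 554) with HuR KD.

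Whether a member responded differently in the 2 species was tested as the interaction of species and knockdown over 8192 pairs of genes with the same symbol. It passed an adjusted p of 0.05 for 0 of 34 members in limma, while 4.99% of all pairs passed. At an unadjusted p under 0.05, 6 of 34 members (17.6%) against 19.7% of all pairs had a difference, namely F11, FGB, F13B, PROC, SERPIND1 and C8B. The differences were uncertain: for SERPINF2, called higher in both, it was 0.13 with a standard error of 0.19. The fit takes 1 spread for both sets, although the median residual SD of members was 0.26 in humanized and 0.16 in WT mouse livers (log2). Without the pair of livers that stood apart, PROC, SERPIND1 and C8B passed the adjusted threshold, and under other scalings F11 and F13B did.

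Among genes that serve the clotting factors, VKORC1, the enzyme that recycles vitamin K and the target of warfarin, fell: it was 7.61, 7.52, 13.1 and 14.6 TPM with HuR KD and 23.6, 19.9, 29 and 25.5 TPM with LacZ in humanized mouse livers. The groups did not overlap, as in 5.03% of human genes on the lower side (log2 fold change −1.16 ± 0.23 SE, limma adjusted p = 0.0906). Without the pair of livers that stood apart the log2 fold change was −1.41 and passed the adjusted threshold (limma adjusted p = 0.0364). Mouse Vkorc1 was 123 ± 8.01 against 121 ± 6.43 TPM (SD, n = 6), and the human fold change was lower by 1.19 (± 0.20 SE, adjusted p = 0.00215 in the joint limma fit). That fit takes 1 spread for both sets. Its SE was below the 0.23 of the human change alone, so this adjusted p may be too small. The paralog of VKORC1, VKORC1L1, fell too, from 6.83 ± 1.22 to 3.54 ± 1.01 TPM (SD, n = 4), a log2 fold change of −0.80, or −0.92 without the pair of livers that stood apart. Mouse Lman1, the receptor that carries F5 and F8 out of the endoplasmic reticulum, fell from 72.3 to 80.8 TPM (median 78.5) with LacZ to 58.2 to 69.3 TPM (median 64.1) with HuR KD. There was no overlap, as in 1.23% of mouse genes on the lower side (log2 fold change −0.29 ± 0.05 SE, limma adjusted p = 0.0346). Ggcx, the carboxylase that uses vitamin K, fell from 57.5 ± 4.68 to 48.4 ± 3.16 TPM (SD, n = 6). Of the 6 genes of this list tested in each set, 2 were called lower (33.3%) and 0 higher in each. Over all genes tested, 7.87% of human and 6.94% of mouse genes were called lower.

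Of the other coagulation genes, 4 of 9 tested were called lower in humanized mouse livers (TFPI, THBS1, ANXA2 and S100A10), against 7.87% of human genes tested. In WT mouse livers 1 of 13 was (S100a10), against 6.94% of mouse genes tested, with 0 called higher in either set. TFPI, the inhibitor of the tissue factor pathway, was 20.1, 14.6, 17.5 and 26.6 TPM with HuR KD against 30.4, 37.5, 32.2 and 31.9 TPM with LacZ. Its groups did not overlap, as in 5.03% of human genes on the lower side (log2 fold change −0.74, or −0.83 without the pair of livers that stood apart). THBS1 was 1.19, 1.64, 1.58 and 0.896 TPM against 13.1, 1.81, 21.5 and 18 TPM, where the low LacZ liver was replicate 2, and its log2 fold change of −2.31 was −2.89 without the pair of livers that stood apart. ANXA2, which with S100A10 forms a receptor for plasminogen, was 22.2, 26.5, 33.8 and 19.5 TPM against 58.9, 31.3, 71.4 and 61.0 TPM, overlapping through LacZ replicate 2. Its log2 fold change was −1.06 (limma adjusted p = 0.153), and −1.20 without that pair (limma adjusted p = 0.0346). Within humanized mouse livers TFPI and THBS1 did not pass the adjusted threshold either (limma adjusted p = 0.146 and 0.149). The human fold changes of TFPI, THBS1 and ANXA2 differed from the mouse ones (adjusted p = 0.0418, 0.0108 and 0.0124 in the joint limma fit). That fit takes 1 spread for both sets. Its SE for THBS1 and ANXA2, 0.50 and 0.26, was below that of the human change alone, 0.57 and 0.27, so their adjusted p may be too small. Of the other complement genes, 1 of 12 tested was called in humanized mouse livers, 8.33% against 11.5% of human genes tested. That gene was CLU (clusterin, a regulator of the terminal complex). It was lower, at 284, 277, 289 and 287 TPM with HuR KD against 384, 319, 396 and 461 TPM with LacZ. The log2 fold change was −0.44 (limma adjusted p = 0.262), or −0.54 without the pair of livers that stood apart. Mouse Clu was 804 ± 53.3 against 743 ± 48.9 TPM (SD, n = 6), and the human fold change was lower by 0.56 (± 0.14 SE, adjusted p = 0.0218 in the joint limma fit). Of 21 other complement genes tested in WT mouse livers, 1 was called higher (C1rl) and 3 lower (C1qb, C1qc and Colec11), 19.0% against 16.0% of mouse genes tested.

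Control levels were set side by side and not tested, since the tables were normalised separately. Protein-coding genes held 28.9 to 37.8% of TPM in humanized and 75.6 to 77.6% in WT mouse livers, so the scale decides part of the comparison. In plain TPM 6 of 40 members were higher in human LacZ livers, and with protein-coding TPM scaled to 1000000 in each liver 16 were, 11 of 23 coagulation, 2 of 3 shared and 3 of 14 complement members. On the latter scale the median ratio of human to mouse was 1.08 over 22 coagulation members and 0.625 over the 10 complement members with at least 0.5 TPM in both. Coagulation members summed to a median of 3.12% of protein-coding TPM in human and 2.27% in mouse LacZ livers, and complement members to 0.328% and 0.853%.

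Several members had unequal levels on the protein-coding scale. C9 was 38.6-fold lower in human (8.67 against 335), a mean carried by LacZ replicate 2, without which it was 135-fold lower (2.48 against 335). CFI was 11.3-fold lower (67.2 against 761) and MBL2 7.58-fold (87.8 against 666). SERPINF2 was 16.0-fold lower in human (62.6 against 1001) and SERPING1, the C1 inhibitor, 5.17-fold (211 against 1092). SERPINC1 was 4.82-fold higher in human (3317 against 688), F11 3.79-fold (182 against 48.0) and CPB2 3.49-fold (1601 against 458). F13B, C6 and C8A stood nearly level, at 310 against 314, 238 against 235 and 351 against 362.

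Some members were near 0 in 1 species. Human C2, CFB, C4B, CFP and SERPINA10 had mean TPM of 0.0443, 0.0951, 0.0611, 0.0442 and 0.304 in LacZ livers, where their mouse counterparts had 35.8, 33.8, 674, 49.4 and 108 TPM. Human C1R, listed in the human table only, was at 0.302 ± 0.116 TPM while its partner C1S was at 237 ± 40.8 TPM (SD, n = 4), and C4A, nearly identical to C4B, was at 1.28 ± 0.616 TPM. These low values stand in tables in which C3, at 610 ± 86.8 TPM, is well detected, and how reads shared by several gene copies or alternative loci were counted was not tested. Mouse A2m was at 0.0181 TPM while human A2M was at 493 ± 254 TPM (SD, n = 4).

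**Figure D4:**
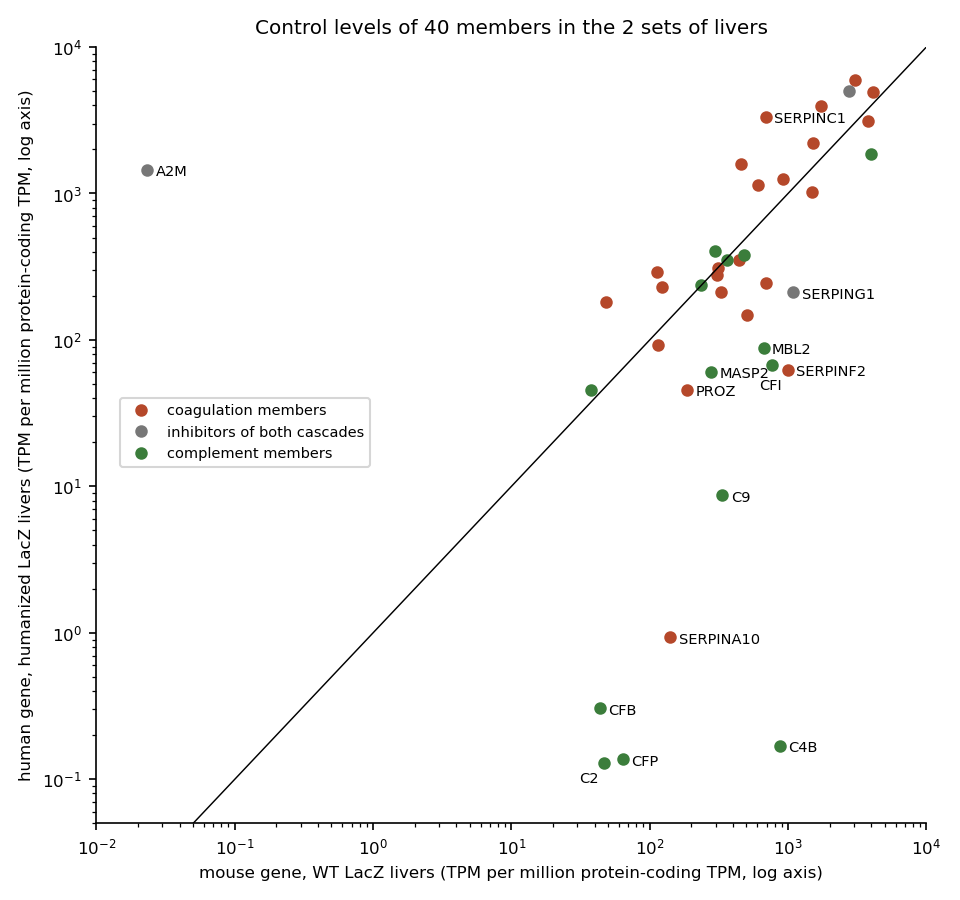
Control (LacZ) level of each of the 40 members in humanized mouse livers (vertical axis, mean of 4 livers) against WT mouse livers (horizontal axis, mean of 6 livers), both with protein-coding TPM scaled to 1000000 on log axes, coloured by class. Points on the line have equal levels, members more than 4-fold from it are named, and A2M lies far above the line while C2, CFB, CFP, C4B and SERPINA10 lie far below it.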

How the data were processed

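Total RNA of 20 livers was sequenced by the authors as stranded paired-end libraries. Per the methods, reads were trimmed with cutadapt, aligned with HISAT2, for humanized mouse livers on an index of both species, and counted on GENCODE v32 or M23 genes with featureCounts, and the authors deposited TPM. The submitters' processing notes name Trim Galore. The formula and gene lengths behind the TPM are not given in the sources used here.

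For genes with a mean of at least 1 TPM, log2(TPM + 1) was compared with limma 3.58.1 in R 4.3.3 (lmFit, eBayes with trend), within each set. Fold changes of low genes are understated on this scale. Calls used an unadjusted p under 0.05, with Benjamini-Hochberg values over all genes beside them. Species and knockdown were crossed in a joint limma fit over pairs. Libraries are labelled as separate liver samples and nothing more, so p-values measure the spread between these samples. The fits were tested on simulated data. Same-numbered livers did not deviate together (correlations from −0.249 to 0.206), so the numbers were not taken as pairs.

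Reads were recovered as whole numbers from the TPM steps within a tolerance of 0.02 for 18702 human genes. The lengths this gave for 16314 mouse genes were within 2% of GENCODE M21 in 100.0%. This depth, from 1423535 to 44662029 reads, limits the precision of low TPM. No sample column was left unused.

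Members, gene lists, markers and naming rule were chosen with earlier results of these data known. Values per liver are given for members called in either set and for the most abundant member of a role. FGG, A2M and C8A meet neither condition and are given in the same way. From other lists, at most 2 genes per list and set, those with the smallest p among called genes, are named, besides those with an adjusted p under 0.05 within a set. C1ra, C1s1, C5, C4BPA, C1S, C1R, C4A and Clec4f were named as counterparts or markers. ANXA2, S100A10, C1rl, Colec11, EPCAM and RELN fall outside this rule and were named after their values were seen. Alternatives were a pseudocount of 0.1, testing every gene, a minimum mean of 5 TPM, median-of-ratios, quantile and protein-coding scaling, no trend, array weights, a replicate block, each liver left out, other classes for the shared inhibitors, and levels scaled over the pairs. Leaving out 2 humanized mouse livers, voom on recovered reads, levels scaled over protein-coding genes and level ratios without each control liver were added after seeing the data. Python 3.11.15 with numpy 2.4.6, pandas 2.3.3 and matplotlib 3.10.9 was used. No human genome or annotation was used here.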

Additional observations from a re-analysis of the deposited data

Results flagged for a closer look

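Within the groups of livers, 148 groups of values (each member tested, in each group) were examined for a liver far from the others by Dixon's criterion, which chance meets in about 1 of 20 groups, and 17 met it. Of these, 7 were HuR KD replicate 6 of the WT mouse livers as the highest liver: F2 at 926 TPM, F7 at 205 TPM, F10 at 374 TPM, F12 at 731 TPM, Proc at 471 TPM, Proz at 256 TPM and Masp2 at 243 TPM. F7, F10 and Proz are neighbours on mouse chromosome 8. LacZ replicate 2, the WT library with the fewest reads, was the highest of its group for F10 (302 TPM), Fgb (2757 TPM) and Proc (424 TPM). Human C9 was highest in both humanized mouse livers that stood apart, at 5.01 TPM in HuR KD replicate 4 and 7.96 TPM in LacZ replicate 2. The others were human PLG in LacZ replicate 4 (390 TPM, highest), and in WT HuR KD livers Serpind1 in replicate 3 (426 TPM, lowest), Vtn in replicate 1 (2483 TPM, highest), Masp1 in replicate 3 (32 TPM, highest) and C9 in replicate 4 (160 TPM, lowest).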

How the results depend on the processing

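For the members called in humanized mouse livers (6), an adjusted threshold left 0 and eBayes without a trend 3, and leaving out each liver gave 1 to 7. For those called in WT mouse livers (14), an adjusted threshold left 0, and leaving out each liver gave 9 to 14. With array weights 7 mouse members passed the adjusted threshold, with voom on recovered reads 2, and 1 each with quantile normalization, with a minimum mean of 5 TPM and without HuR KD replicate 6. The 0 members with different responses in the 2 species became 1 with median-of-ratios factors, 2 with quantile normalization, 2 with protein-coding scaling and 3 without both humanized mouse livers that stood apart, and 0 to 2 when each liver was left out. Coagulation minus complement ran from 0 to 0.17 in humanized and from 0.15 to 0.24 in WT mouse livers when each liver was left out. The 6 members higher in human control livers became 16 when scaled over protein-coding genes. The share of all human calls that were higher was 31.3% as reported, 49.5% with median-of-ratios factors, 47.3% with quantile normalization and 47.6% with protein-coding scaling. With the replicate block 4 human and 10 mouse members were called, and 2 of 8 and 3 of 12 livers deviated most like the liver of their own number. HuR mRNA kept its direction and an unadjusted p under 0.05 under the alternatives fitted. The human value did not pass the adjusted threshold (limma adjusted p = 0.214) and was not tested at a minimum mean of 5 TPM. The causes of these shifts were not tested. Low TPM are limited by depth, most of all in WT LacZ replicate 2, with 1423535 reads.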
